A study of Caenorhabditis elegans with 2 samples.

Results

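The genes described here are 10 cuticle collagen genes of Caenorhabditis elegans that were found through mutants with an altered body shape and that lie outside the group of collagens known to form the furrows of the cuticle. They are dpy-4, dpy-5, dpy-13, dpy-14, dpy-17, sqt-1, sqt-3, rol-6, bli-1 and bli-2, of 19807 genes with a named probe on the array. They were taken by name, through the systematic name of each probe, and all 10 were found, with 21 probes in all. The choice of genes was made with their diet difference in view, so the values below describe them and support no test. The study used whole young adults of the N2 strain, the usual laboratory wild type. One group was raised on Escherichia coli OP50, the standard food, and the other on Lysinibacillus sphaericus, a Gram-positive soil bacterium, in each case from hatching to young adulthood at 20 °C. Each diet has 1 array of Cy3-labelled cRNA, with no replicate, and neither group carries a mutation or transgene named in the labels. The number of worms behind each RNA sample and the spread between worm populations are unknown.

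The cuticle is an extracellular coat made largely of collagens that the epidermis secretes anew for every molt. Each collagen chain carries Gly-X-Y repeats that wind into a triple helix, and the chains are hydroxylated and folded in the endoplasmic reticulum, cut by proteases, secreted and cross-linked. Mutants of single chains are named for what is seen in the worm: short and stout (dumpy, dpy), short and twisted (squat, sqt), turning around the long axis (roller, rol) or with fluid-filled swellings of the cuticle (blister, bli). Collagen genes are known to be switched on in waves, by stage and within each molt.

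Levels are Agilent processed signals, which are background-subtracted brightness values in arbitrary units, and a log2 difference is the L. sphaericus-fed value less the OP50-fed value after the 75th percentile of each array was subtracted. The share of the 43803 non-control spots well above background was 76.1% for the OP50-fed worms and 75.5% for the L. sphaericus-fed worms, and the 75th percentile of the L. sphaericus-fed array was 2.34-fold higher before scaling. All 21 collagen probes were well above background on both arrays and none was saturated. The 3 adult collagen genes col-7, col-19 and col-62 and the 11 listed oocyte and eggshell genes were also well above background on both arrays. The SD of the difference was 0.10 over repeated spots of a probe (median of 33 probes) and 0.18 between probes of a gene (median of 2761 genes). These are technical errors and the number of arrays limits the precision.

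Of the 10 collagen genes, dpy-14 and dpy-17 were more than 100-fold higher in the worms fed L. sphaericus, sqt-3, bli-1 and bli-2 were between 2.08-fold and 2.77-fold higher, and dpy-4, dpy-5, dpy-13, sqt-1 and rol-6 differed by less than 2-fold. The count was thus 5 higher by at least 2-fold, 0 lower and 5 between. Over all 15301 genes measured on both arrays, 22.1% passed the 2-fold level on the higher side and 32.6% on the lower side. A difference of at least 100-fold on the higher side was found in 0.0654% of them, which is 10 genes, and dpy-14 and dpy-17 were 2 of those. The median difference of the 10 collagens was 0.60, against −0.20 for all measured genes, and 9 of the 10 lay above the median of all genes with this scaling. The genes were chosen on this contrast, and nothing is read from these shares.

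**Figure D1:**
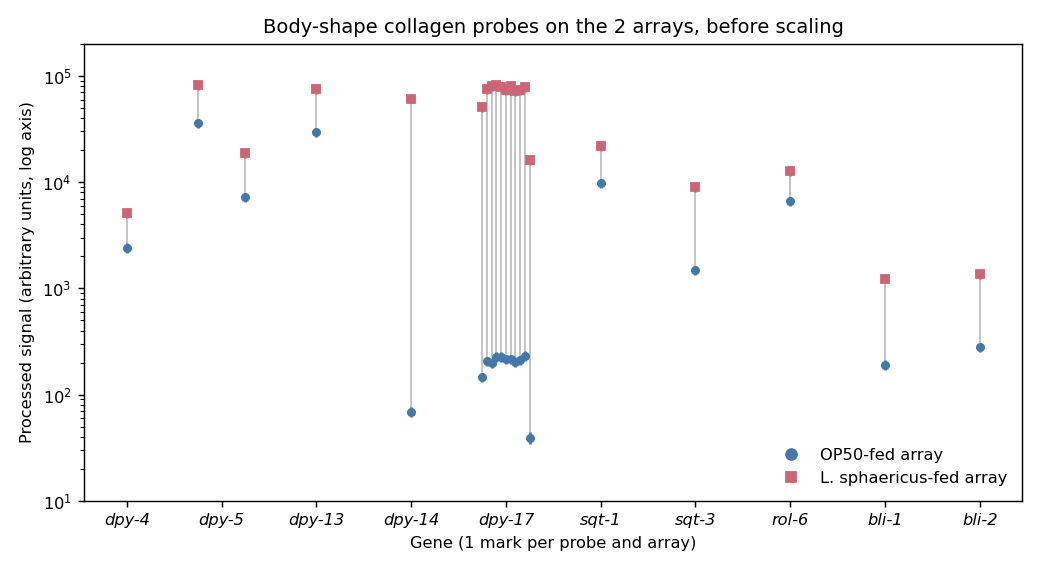
Processed signal of every probe of the 10 collagen genes (log axis, arbitrary units, before scaling) on the OP50-fed array (circles) and the L. sphaericus-fed array (squares), with the scanner software's error as bars that are mostly smaller than the marks. Every probe was brighter on the L. sphaericus-fed array, from 1.93-fold for rol-6 to 885-fold for dpy-14.

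Among the dumpy genes, dpy-14 had the largest difference of the 10. Its single probe read 69.3 ± 7.69 with OP50 and 61293 ± 6129 with L. sphaericus (processed signal with the scanner's error, 1 spot). The low value lay above the lowest signal counted as well above background on that array, 15.7, and the raw spot intensity there was 143.5 over a local background of 43. The log2 difference was 8.56 ± 0.22 (scanner's error), or 378-fold, the third highest of all measured genes. With normexp, a model-based background correction used here with an offset of 50, it was 7.67. No other probe of dpy-14 was found, so no second probe checks this value.

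The collagen gene dpy-17, known from genetics to act together with sqt-3, was measured by 11 probes. On the OP50-fed array they read from 39.1 to 233, with a median of 211, and on the L. sphaericus-fed array from 16091 to 81967, with a median of 75667. Each of the 11 probes was brighter with L. sphaericus. They share 1 RNA sample per diet and are no replicates of it. The dimmest probe was the same on both arrays, and the next dimmest read 146 and 51025. Despite this spread in brightness, the ratios were close to one another, from 145-fold to 176-fold. The log2 difference was 7.23 ± 0.09 (median, SD over 11 probes), the ninth highest of all measured genes, and its probe-to-probe SD was below the 0.18 that is typical of a gene with several probes. Between dpy-14 and dpy-17 the log2 differences lay 1.33 apart, and dpy-17 stood 5.76 above bli-1, the next of the 10 genes.

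**Figure D2:**
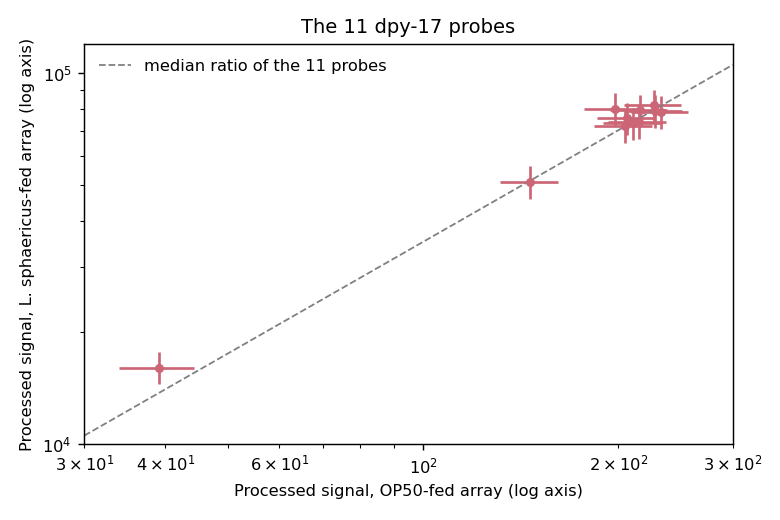
Processed signals of the 11 dpy-17 probes on the OP50-fed array (horizontal, log axis) against the L. sphaericus-fed array (vertical, log axis), with the scanner software's errors as bars and the median ratio of the probes, 351-fold before scaling, as a dashed line. The probes lie along the line from the dimmest to the brightest.

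The other dumpy genes of the group were bright on both arrays and differed little. The probe of dpy-13 read 29431 ± 2943 with OP50 and 75915 ± 7592 with L. sphaericus, a ratio close to the 2.34-fold between the arrays' 75th percentiles, and its scaled log2 difference was 0.14 ± 0.20 (scanner's error). The 2 probes of dpy-5 read 7185 and 36076 with OP50 and 18630 and 81605 with L. sphaericus. They gave 0.15 and −0.05, with a median of 0.05 ± 0.14 (SD over 2 probes). The probe of dpy-4 read 2418 and 5150 in the same order, a log2 difference of −0.14 ± 0.20. For dpy-13, dpy-5 and dpy-4 the scaled difference was no larger than the scanner's error, while their signals before scaling were 2.58-fold, 2.43-fold and 2.13-fold higher in the worms fed L. sphaericus. That error is assigned by the scanner software and was 0.20 for each of these genes. The SD over repeated spots of a probe was 0.10 (median), smaller than the differences of dpy-13 and dpy-4.

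The squat and roller genes split in the same way. The collagen SQT-3 is known to be cut at its C-terminal end by the astacin protease DPY-31, and loss of either is known to disturb the embryo's elongated shape. The probe of sqt-3 read 1492 ± 149 with OP50 and 8999 ± 900 with L. sphaericus, a log2 difference of 1.37 ± 0.20, or 2.58-fold. The genes sqt-1 and rol-6 are known to interact, since the roller form of rol-6 depends on sqt-1. Their probes read 9784 and 6656 with OP50 and 21975 and 12832 with L. sphaericus, with scaled log2 differences of −0.06 ± 0.20 and −0.28 ± 0.20. Both were thus less than 2-fold apart between the diets, and rol-6 was the lowest of the 10 collagens and the only one of them below the median of all genes with this scaling. After quantile and loess normalization, and with probes below the median signal left out, dpy-4 and sqt-1 lay below that median too, as did dpy-5 in the last 2 of these settings, by far less than the scanner's error.

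The blister genes bli-1 and bli-2 encode collagens of the struts, the pillars that join the layers of the adult cuticle. The probe of bli-1 read 190 ± 19.5 with OP50 and 1236 ± 124 with L. sphaericus, a log2 difference of 1.47 ± 0.21, or 2.77-fold. That of bli-2 read 281 ± 28.3 and 1365 ± 137, with 1.06 ± 0.20, or 2.08-fold. The value of bli-2 is just inside the 2-fold level, and it was 0.86 when the scaling used detected probes only and to 0.93 after normexp background correction. Both strut genes lay on the same side, 1.67 and 1.25 above the median of all genes. At the same relative scale sqt-3 was at 1.56.

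**Figure D3:**
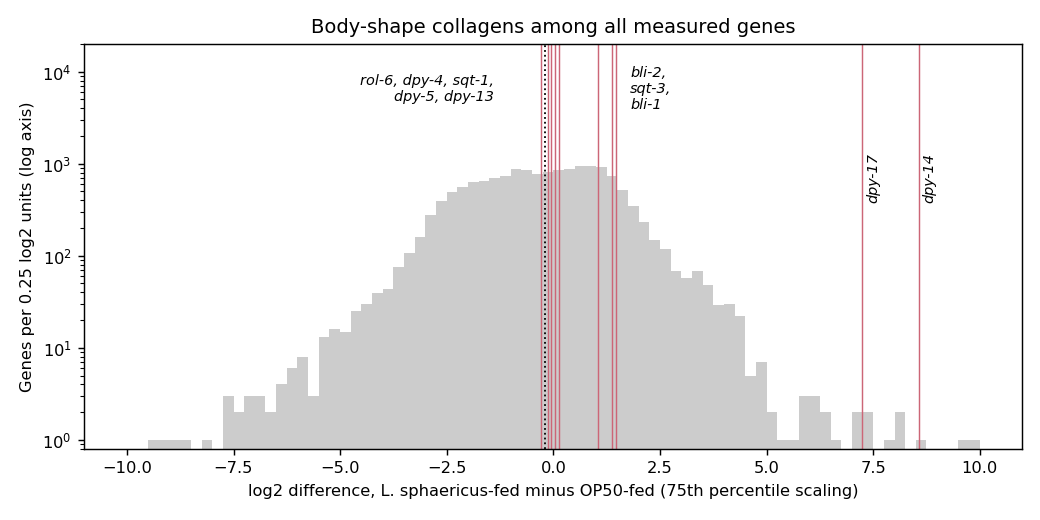
Histogram of the log2 difference of the 15301 genes measured on both arrays (bins of 0.25, log axis), with the 10 collagen genes as vertical lines and the median of all genes, −0.20, as a dotted line. The other lines stand between −0.28 and 0.14, between 1.06 and 1.47, and dpy-17 and dpy-14 at 7.23 and 8.56.

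The scaling sets where the genes near 0 fall. Genes that were higher made up 40.4% of the genes at least 2-fold apart with the 75th percentile, 64.6% with median scaling, 69.9% with ribosomal scaling, 81.4% with no scaling, 50.5% after quantile normalization and 50.4% after loess centring, and these settings moved the median of all genes by 0.64, 0.81, 1.23, 0.29 and 0.30. With median and ribosomal scaling, 5 collagens were again at least 2-fold higher, beside 37.9% and 41.6% of all genes. With no scaling the count was 9, beside 50.6% of all genes. The signs of dpy-4, dpy-5, dpy-13, sqt-1 and rol-6 changed between settings, while those of the other 5 genes did not under any of the 14 settings. For the 8 genes with 1 probe, among them dpy-14, sqt-3, bli-1 and bli-2, settings that filter or combine probes cannot change the scaled value. The series table holds the same intensities. Only the scalings and normexp could move these genes as scaled. Relative to the median of all genes, dpy-14 lay between 8.02 and 9.04, dpy-17 between 6.88 and 7.71, sqt-3 between 1.001 and 1.84, bli-1 between 1.37 and 1.96 and bli-2 between 1.004 and 1.53 over the 14 settings.

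**Figure D4:**
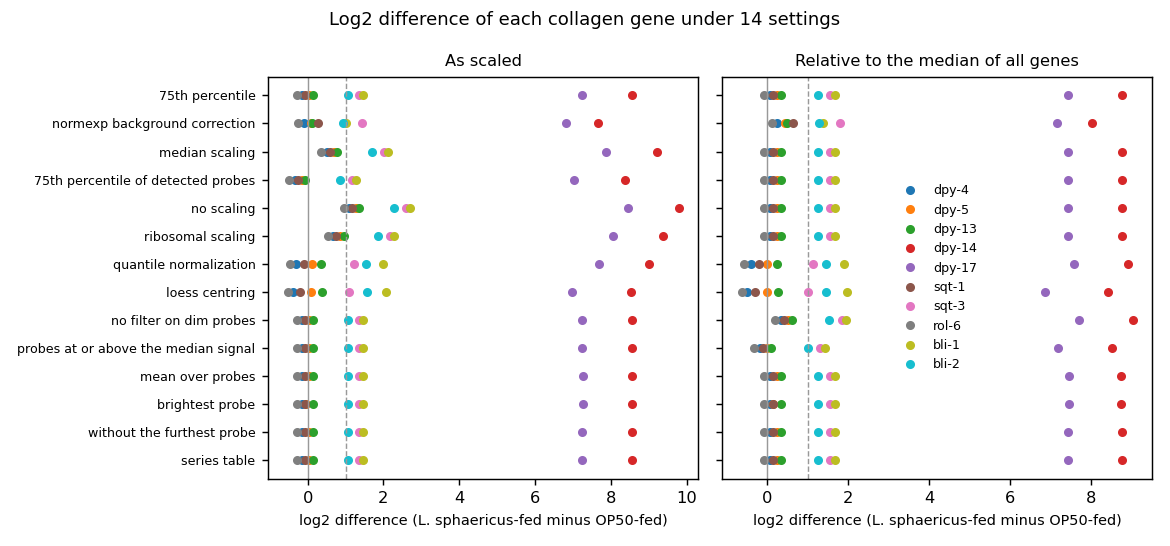
Log2 difference of each of the 10 collagen genes (colours) under 14 processing settings, as scaled (left) and relative to all measured genes' median (right), with a dashed line at the 2-fold level. As scaled, the 5 genes near 0 lie on either side of 0 depending on the setting. Relative to the median of all genes, dpy-13 stays above 0, from 0.09 to 0.62. In both panels dpy-14 and dpy-17 stay at 6.81 or above throughout.

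Other cuticle collagens are given beside the 10 genes. Of the 6 furrow collagens, which are known to be made early in each molt, dpy-3 was 2.02-fold higher (log2 0.97 and 0.90 after quantile and loess normalization), and dpy-8 and dpy-9 were 2.53-fold and 2.28-fold lower, dpy-9 turning to 0.035 with no scaling. The other 3, dpy-2, dpy-7 and dpy-10, lay between −0.07 and 0.58. With no scaling 4 furrow collagens were higher by at least 2-fold and 0 lower. The 4 other collagens named for mutants, lon-3, rol-8, sqt-2 and bli-6, were all within 2-fold, with lon-3 the highest at 0.91 and bli-6 at 0.61. With no scaling 3 of these 4 were at least 2-fold higher. Of the measured col genes, the numbered members of the family, 24 (18.3%) were at least 2-fold higher and 19 (14.5%) lower, while median scaling gave 53 and 6, and no scaling 78 and 3. Their median lay 0.32 above that of all genes. The highest were col-101 at 17.4-fold, col-137 at 14.8-fold and col-95 at 10.4-fold. None of the col genes measured on both arrays thus reached the difference of dpy-17. A further 3 col genes were well above background with L. sphaericus only and at least 2-fold higher by their lower bounds. Another 22 on the array were not compared. These unmeasured col genes were not ranked against dpy-17, and a difference as large as its own is not excluded for them. The lowest were col-50, col-164 and col-153, at 20.7-fold, 14.2-fold and 9.004-fold lower. The genes col-137, col-50 and col-164 were dim on 1 array, and with normexp their log2 differences went from 3.88, −4.37 and −3.83 to 2.62, −3.39 and −2.89. The adult collagen col-19 was 3.32-fold higher, with its 2 probes at 1.21 and 2.25. The other 2 adult collagens, col-7 and col-62, were within 2-fold, at 0.22 and 0.10. With no scaling all 3 were at least 2-fold higher.

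Genes whose products fold, modify and export collagens were mostly within 2-fold. Of 9 measured, 1 was at least 2-fold higher and 0 lower, with a median 0.86 above that of all genes (0.36 to 1.14 over the settings). The one beyond 2-fold was tmem-131, needed for procollagen secretion, at 1.51 ± 0.27 (SD over 5 probes). The prolyl hydroxylase genes dpy-18, phy-2 and phy-3 were at 0.99 ± 0.55 (SD over 2 probes), 0.28 and −0.97, phy-3 being the lowest of the list. The disulfide isomerase gene pdi-2 was at −0.57 ± 0.32 (SD over 8 probes), and the thioredoxin-like gene dpy-11 at 0.66 ± 0.20 (SD over 2 probes). With median scaling 5 of the 9 were higher.

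Of the genes of collagen processing after folding, 0 of 3 cleavage genes and 0 of 5 cross-linking genes were at least 2-fold higher, against 1 of each with no scaling. The convertase gene bli-4, whose product cuts cuticle collagens near their N-terminal end, was 2.95-fold lower, but its 5 probes ranged from −3.07 to −0.06 and the median was −0.91 with median scaling. The protease gene dpy-31 was at −0.60, in the opposite direction to its known substrate gene sqt-3 at 1.37. It lay above 0 with median scaling, with ribosomal scaling and unscaled. The 5 genes of dityrosine cross-linking, among them the dual oxidase gene bli-3 and the peroxidase gene mlt-7, were all within 2-fold, with a median 0.27 below that of all genes. That median lay between −0.55 and 0.01 of all genes over the settings.

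Genes of the precuticle and embryonic sheath, the matrix laid down before a cuticle, were higher in 3 of 9 and lower in 0, against 5 and 0 with median scaling. They were dex-1 at 4.74-fold, with its 2 probes at 1.57 and 2.92 and a value of 0.87 with normexp, egg-6 at 4.26-fold and noah-1 at 2.08-fold. Of 11 molting genes, 3 were higher and 1 lower, led by mlt-8 at 2.66-fold and mlt-10 at 2.20-fold (log2 0.95 with normexp), with the lipoprotein receptor gene lrp-1 2.23-fold lower, turning to 0.071 with no scaling. With median scaling 7 molting genes were higher and 0 lower. Of 12 genes of epidermal regulators, 2 were higher and 2 lower, against 5 and 1 with no scaling or ribosomal scaling. The epidermal fate gene lin-26 was 3.16-fold higher and bed-3 2.15-fold higher, the latter at 0.46 on the log2 scale with normexp. The gene lin-29, which acts in the switch to the adult epidermis, was 3.24-fold lower, though its log2 difference was −0.88 with ribosomal scaling and −0.47 with no scaling. The gene peb-1, dim on the L. sphaericus-fed array, was 10.04-fold lower, with a log2 difference of −3.33 that was −2.26 with normexp.

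Of 10 genes of the body size pathway, a BMP-type signal known to control collagen genes, 6 were lower and 1 higher, beside 32.6% and 22.1% of all genes. Median scaling gave 4 lower and 2 higher, ribosomal scaling 3 and 2, and no scaling 2 and 3. The 6 lower ones with the 75th percentile were sma-10, sma-9, sma-2, dbl-1, sma-6 and sma-4. The receptor-associated gene sma-10 was at −3.20 ± 1.63 (SD over 4 probes) and sma-9 at −2.31 ± 0.38 (SD over 8 probes), and lon-1 was 7.12-fold higher. The median of this list lay 0.97 below that of all genes (−1.22 to −0.69 over the settings).

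**Figure D5:**
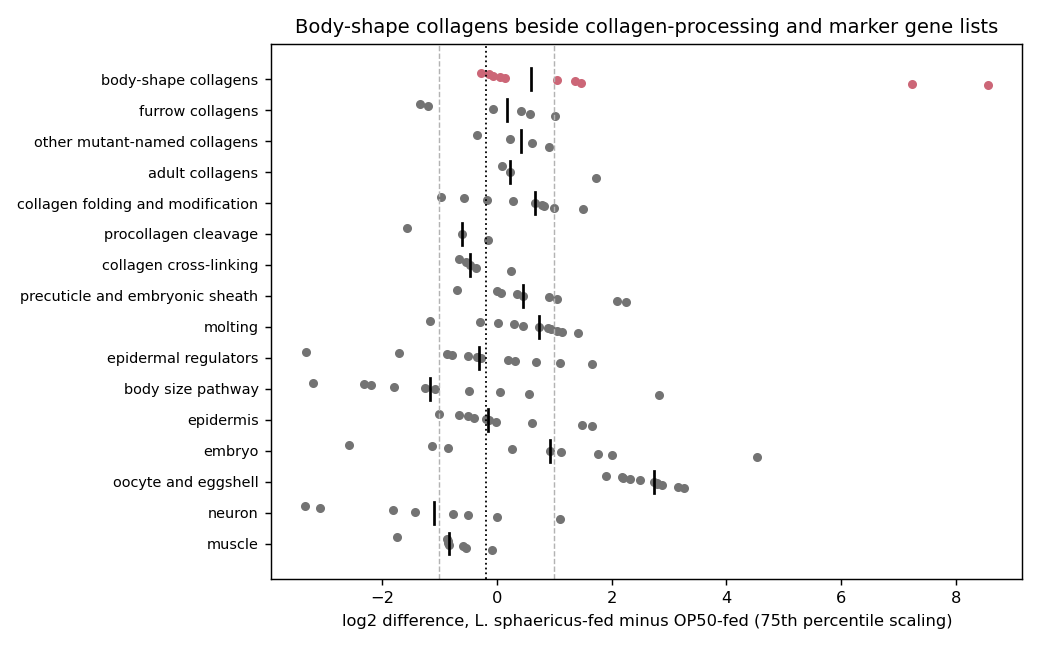
Log2 difference of the 10 body-shape collagens (top) and of the members of 15 comparison lists measured on both arrays, 1 point per gene, with the median of each list as a bar, the median of all genes as a dotted line and the 2-fold levels dashed. The points of dpy-17 and dpy-14 lie to the right of every gene of the other lists shown. The genes lin-26 and elt-3 are in both the epidermal regulator and the epidermis list and are drawn in each.

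The oocyte and eggshell list and some of the embryo genes were higher beside the high collagens. RNA came from whole worms, in which fewer cells of a type and less RNA per cell cannot be told apart, and an adult that holds embryos adds their RNA. Of 14 embryo genes, 9 were well above background with OP50 and 13 with L. sphaericus, and the sum of their signals before scaling was 3109 and 21295. Most of the second sum came from pal-1 at 13749, tbx-9 at 3517 and hch-1 at 1933. Whether these signals, with pal-1 the largest, came from embryos or from the germline of the adults was not tested. Among the 9 that could be compared, 4 passed 2-fold on the higher side and 2 on the lower, against 6 and 1 with ribosomal scaling, with a median 1.13 above that of all genes (0.39 to 1.65 over the settings). The T-box gene tbx-9 was 23.1-fold higher, a log2 difference of 4.53 that was 3.32 with normexp background correction, and pal-1 4.02-fold higher, while the posterior Hox genes php-3 and nob-1 were 5.99-fold and 2.18-fold lower, nob-1 turning to 0.10 with no scaling. The hatching enzyme gene hch-1 read 4.18 with OP50, which was not well above background, and 1933 with L. sphaericus, at least 52.7-fold higher. The genes hch-1, end-1, tbx-37, tbx-38 and tbx-8 were the 5 at background level with OP50. Each of the 11 genes of oocytes and the eggshell was higher by at least 2-fold, with a median 2.94 above that of all genes and oma-2 the highest at 9.56-fold, and the sum of their signals was 59685 and 725872. The part of embryos or eggs in the differences of dpy-14, dpy-17 and the other collagens was not tested.

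The lists for other tissues had medians near or below that of all genes. Of 10 epidermis genes, the tissue that makes the cuticle, 2 were higher and 0 lower, with wrt-2 at 2.80-fold beside lin-26, and their median lay 0.04 above that of all genes (−0.21 to 0.32 over the settings). The genes lin-26 and elt-3 are also in the list of epidermal regulators, so lin-26 is counted as higher in both lists. With no scaling 6 epidermis genes were higher and 0 lower. The neuron list had 4 of 8 lower and 1 higher, and the muscle list 1 of 8 lower and 0 higher, with medians 0.90 and 0.64 below that of all genes. The neuropeptide processing gene egl-3 was 10.1-fold lower, while unc-119, of the same list, was 2.15-fold higher. The pharyngeal myosin gene myo-2 was 3.34-fold lower. With no scaling the neuron list had 2 higher and 2 lower and the muscle list 1 higher and 0 lower.

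Few of the 15301 genes measured on both arrays had a diet difference like that of the 2 extreme collagens. Genes not well above background with OP50, such as hch-1 at 52.7-fold or more, could not be ranked. By the distance between log2 differences over the 2 arrays, within the brighter genes (mean signal no lower than the median), the 3 nearest to dpy-14 were sysm-1, the yolk protein gene vit-1 and the saposin-like gene spp-17, at 8.10, 8.08 and 7.91. With OP50 the signal of sysm-1 was 19.5, near the floor, and its difference was 6.05 with normexp. The 3 nearest to dpy-17 were C09B8.4 at 7.41, folt-2 at 7.03 ± 0.11 (SD over 3 probes) and F01D5.3 at 7.47. With OP50 the signal of folt-2 was 24.1, also near the floor, and its difference was 5.16 with normexp, against 6.81 for dpy-17. None of these 6 genes is a cuticle collagen by its name, and a likeness over 2 arrays is a weak description.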

How the data were processed

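The authors deposited 1 Agilent scanner file per diet and a series table. Per the file headers, Agilent Feature Extraction 11.0.1.1 wrote the deposited intensity values, background-subtracted and on a linear scale, with an error and flags for each spot. The headers give 1 slide and 1 scan time for both. Other deposited quantities, such as flags, are marks of the software. The deposited series table holds the same intensity: 43596 and 43594 of 43603 probes lay within 0.01 log2 units of the scanner value. It is thus linear, unscaled and uncentred, with medians of 247 and 369.

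Control spots and 36 outlier spots were left out, log2 was taken, repeated spots were averaged and each array's 75th percentile was subtracted. Genes were summarised by the median over their probes well above background on both arrays. Where that held on 1 array only, the ratio is a lower bound, taken against the dim probe's own signal or the lowest signal well above background, whichever was higher. Systematic names and RefSeq accessions were matched to a RefSeq gene table (WBcel235), naming 34298 of 43579 probes. Coordinates are left out because the array was designed on another build. The steps were tested on simulated data with balanced differences planted in a small part of the genes. On the arrays far more genes were at least 2-fold apart, so the simulation does not test the choice of scaling. With 1 array per diet no test was run.

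The members and gene lists were chosen with earlier results of these data known. Named are all 10 members, the 2 furthest genes per direction of each list (3 of the col genes), a few set in advance (col-19, lin-29, hch-1, bli-4, dpy-31) and the 3 nearest genes to dpy-14 and dpy-17. Further genes of the small lists and the chromosome neighbours were named after their values were seen. Alternatives used limma 3.58.1 (normexp, offset 50, on median spot and background intensity, since no mean signal column is in the files) and statsmodels 0.14.6 (loess, span 0.3).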

Additional observations from a re-analysis of the deposited data

How the results depend on the processing

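The 2-fold counts of the 10 collagens were recomputed under 13 alternatives and 2 other thresholds. The count of lower genes was 0 in each of them. The count of higher genes stayed at 4 or 5, apart from 9 with no scaling and 2 at a 3-fold threshold. Of all 15301 measured genes, 2633 were higher when the scaling used detected probes only, and 7749 with no scaling. No share of all genes is given for the 2 other thresholds, and nothing is read from the stable count. The median of the 10 genes relative to all genes, 0.79, was 0.96 with normexp background correction, 0.64 after loess centring, 1.08 without the filter on dim probes and 0.55 with dimmer probes (below the median signal) left out. Normexp replaces the background step and the 2 filters change which genes are compared; the cause of the other shifts was not tested. Of 56 measured genes named by rule with 723 recomputed values, 3 genes at least 2-fold lower changed sign, all with no scaling: dpy-9 to 0.035, lrp-1 to 0.071 and nob-1 to 0.10. Genes within 2-fold changed sign too, and not only with no scaling. Among them were dpy-31, mlt-7, duox-2 and 5 of the 10 collagens. No paired analysis was possible because there is 1 array per diet, and no array could be left out. Signal over background limits the genes that are dim on 1 array. Of the 10 collagens, dpy-14 moved furthest with normexp: its log2 difference was 7.67 with normexp against 8.56, and that of dpy-17 was 6.81 against 7.23.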

Other observations

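The genes that lie next to the 10 collagens on the chromosomes, by gene order in the RefSeq table, did not show differences of the size of dpy-14 and dpy-17. Of 20 such neighbours, 19 were measured on both arrays, and their log2 differences ranged from −2.80 to 1.65. With the 75th percentile scaling 3 were at least 2-fold higher and 9 lower, beside 22.1% and 32.6% of all measured genes. Only this scaling was used for these counts. Beside dpy-14, dpf-3 was at 1.45 and H27M09.5 at −1.72. Beside dpy-17, F54D8.6 was at 0.73 and sax-2 at −0.05. Both neighbours of bli-2 were higher, zyg-1 at 1.42 and F59E12.1 at 1.65. The collagen gene col-34 next to dpy-13 was at −1.95, against 0.14 for dpy-13 itself, and col-80 next to bli-1 was at 0.41, against 1.47.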
